A study of Mus musculus with 5 samples.

Results

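Nuclei of mouse kidneys without injury were sorted by a green fluorescent histone (GFP) into GFP-positive and GFP-negative fractions, and the nuclear RNA of each fraction was counted in 1 droplet library (10x Genomics). All barcodes with at least 200 detected genes were compared, 3508 of 3508 in the GFP-positive library and 3338 of 3339 in the GFP-negative library. These 6846 nuclei are part of the 16359 that pass the same limit in the 5 libraries of the study. The other libraries are GFP-positive nuclei after ischaemia-reperfusion injury (IRI). Both fractions came from male Six2-TGC; Rosa26rtTA; pTRE-H2BeGFP mice, 10 to 12 weeks old and given doxycycline food (625 mg/kg) from the first days of life. The GFP-positive sample is labelled adult nephron and the GFP-negative sample adult non-nephron. Both carry the same serum values (creatinine 0.122 mg/dL, urea nitrogen 26.1 mg/dL), and the labels do not say whether the fractions came from the same animals. The sample titles state no injury whereas sham surgery appears in the study's design text, and whether these mice had an operation is not clear from them.

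Six2 is a transcription factor that keeps the nephron progenitors of the embryonic kidney in a self-renewing state. Their descendants form the nephron, from the podocytes and the proximal tubule (PT) through the thin limb and the thick ascending limb (TAL) to the distal convoluted tubule (DCT) and most of the connecting tubule (CNT). The collecting duct grows from the ureteric bud, and endothelium, stroma and immune cells have other origins. In mice of this kind a Six2-driven transgene acts in the progenitors, and the reverse tetracycline transactivator expressed from the Rosa26 locus then switches on the fluorescent histone under doxycycline, so that GFP marks the progeny of Six2 cells and not present Six2 activity. The comparison asks which cell types the label separates, and how labelled and unlabelled nuclei of the same segment differ.

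Values below are unique molecular identifier (UMI) counts summed over nuclei and divided by the total of the sum, giving counts per 1000000 UMIs (CPM). Ratios are GFP-positive over GFP-negative, and gene totals needed at least 40 UMIs over both sums. A gene is called higher or lower at a ratio of at least 2-fold. There was 1 library per fraction, so no test between fractions was possible. Each interval is a 95% interval for counting error alone, without the variation between animals, sorts or libraries. The GFP-positive library held 7153971 UMIs, or 1793.5 UMIs and 992.5 genes in the median nucleus, and the GFP-negative library 3846181 UMIs, with medians of 964 and 622. Mitochondrial transcripts were 0.0888% of the UMIs of the GFP-positive library and 0.155% of those of the GFP-negative library. The libraries shared 17 barcodes. The upper limit for a gene with 0 UMIs, taken as 3 counts, was 0.419 CPM over all GFP-positive and 0.780 CPM over all GFP-negative nuclei.

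Six2 transcripts were found mainly in GFP-positive nuclei. The library of GFP-positive nuclei held 161 Six2 UMIs (22.5 CPM) and that of GFP-negative nuclei 2 UMIs (0.520 CPM), a 43.3-fold difference with an interval of 11.8 to 360. At least 1 Six2 UMI was found in 129 of 3508 GFP-positive nuclei (3.68%) and in 2 of 3338 GFP-negative nuclei (0.0599%). The counts cannot tell transcripts of the endogenous gene from any Six2 sequence carried by the transgene, and the GFP transcript itself was not analysed here. Six2 lies on chr17:85684277-85688274 (GRCm38, minus strand). The 250 bases upstream of its RefSeq start, chr17:85688255-85688504 on the minus strand (GRCm38.p6), are shown because this is the promoter of the gene after which the driver is named. The gene position given before is from GENCODE, whose start lies inside this window, so the window overlaps the gene as placed there.
Six2 upstream: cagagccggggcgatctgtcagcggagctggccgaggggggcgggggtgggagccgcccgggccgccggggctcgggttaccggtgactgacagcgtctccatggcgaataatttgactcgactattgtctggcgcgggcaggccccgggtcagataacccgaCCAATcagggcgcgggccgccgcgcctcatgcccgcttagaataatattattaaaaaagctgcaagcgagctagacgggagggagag
The capitals mark the motif CCAAT. It was searched on both strands, and 33.8% of 32851 windows of the same length hold it. TATAAA, searched in the same way, is found in 12.4% of those windows and not in this one. A match describes the letters only.

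Within the GFP-positive library, Six2 was unevenly spread over the clusters of nuclei. Its level was 111 CPM (80.05 to 150) in a cluster led by Gm26870, Kcnip4 and Ncam1 that could not be given a segment name, where 28 of 226 nuclei (12.4%) held a UMI. Another unnamed cluster, led by Slc12a1, had 35.3 CPM, with a UMI in 12 of 121 nuclei (9.92%), and an unnamed cluster led by Fabp4 had 29.9 CPM from 3 UMIs. Fibroblast and mural-like nuclei had 41.9 CPM from 3 UMIs and endothelium-like nuclei 60.1 CPM from 1 UMI. The Six2 level was 26.8 CPM in an early PT cluster led by Slc5a12 and 21.0 CPM in the middle PT cluster. It was 3.02 CPM in the other early PT cluster and 7.86 CPM in the late one. TAL-like nuclei had 5.197 CPM from 2 UMIs and DCT-like nuclei 7.62 CPM from 2 UMIs. No Six2 UMI was seen in GFP-positive CNT-like, intercalated-like or podocyte-like nuclei. Their upper limits at 3 counts were 38.1, 29.1 and 163 CPM. These limits lie above the 18.4 CPM of GFP-positive PT-like nuclei, so the zeros do not show a lower level. In the GFP-negative library PT-like nuclei had 0 Six2 UMIs, with an upper limit of 3.501 CPM at 3 counts, against 86 UMIs and 18.4 CPM in GFP-positive PT-like nuclei. Against that floor the GFP-positive level is 5.26-fold higher, and the exact upper bound of the GFP-negative level is 4.30 CPM. The libraries held the PT clusters in unequal shares. The late PT cluster had 4 Six2 UMIs in GFP-positive and 0 UMIs in GFP-negative nuclei (upper limit 5.49 CPM), which are few counts. The limits of the GFP-negative early PT clusters were 39.2 and 25.5 CPM, and that of the middle one 25.7 CPM. These lie above the GFP-positive levels of the same clusters, so no difference is shown within them. Gt(ROSA)26Sor, the transcript of the locus that carries the transactivator, had 17.9 CPM in GFP-positive and 23.9 CPM in GFP-negative nuclei. No UMI of Six3, its neighbour and relative, was counted in either library, which allows the levels up to the limits given above.

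**Figure D1:**
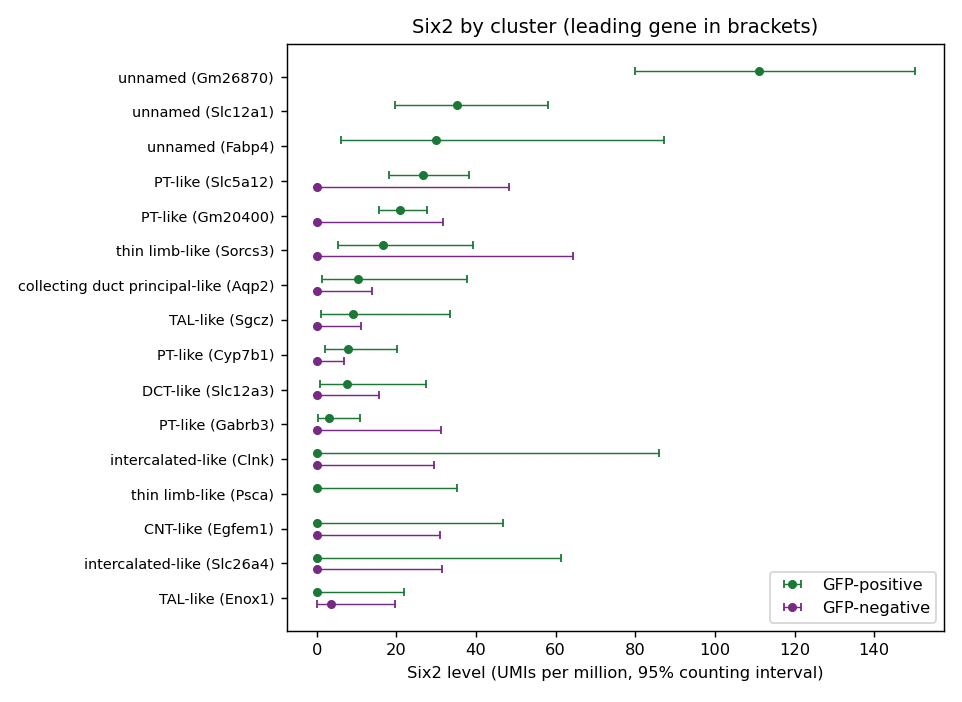
Six2 level per cluster of nuclei in CPM with the 95% counting interval, for clusters with at least 20 nuclei; GFP-positive points stand above GFP-negative ones. The unnamed cluster led by Gm26870 has the highest level, 111 CPM, and GFP-negative PT-like clusters are at 0.

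The label enriched the segments unequally. Nuclei were clustered and each cluster was given the name of the marker class it resembled most, with the suffix "-like". PT-like nuclei made up 61.6% of the GFP-positive library (2161 nuclei), against 11.4% of the GFP-negative library (381 nuclei). The summed level of the 14 PT markers was 24582 CPM in GFP-positive and 26135 CPM in GFP-negative PT-like nuclei, with none at 0 in either. The same markers gave these clusters their name, so the sums describe the class and do not test it. Thin limb-like nuclei followed the PT, at 8.07% in the GFP-positive and 1.86% in the GFP-negative library. Further down the nephron the order turned. The TAL-like share was 9.24% in the GFP-positive library (324 nuclei) and 14.6% in the GFP-negative library (489 nuclei), and DCT-like nuclei 2.91% (102 nuclei) and 4.85% (162 nuclei). CNT-like nuclei were 1.88% of GFP-positive nuclei (66) and 2.31% of GFP-negative nuclei (77). The interval of their share ratio, 0.578 to 1.15 around 0.816, includes equal shares. The direction turned with the clustering, with 3.51% of GFP-positive against 2.49% of GFP-negative nuclei when all 5 libraries were clustered, and 4.87% against 0% when each library was clustered by itself.

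The classes with other origins lay mostly on the unlabelled side. Collecting duct principal-like nuclei made up 2.11% of GFP-positive nuclei, against 13.5% of GFP-negative ones, and intercalated-like nuclei 1.31% and 5.30%. Endothelium-like nuclei were 0.285% of the GFP-positive library, 10 nuclei, and 23.5% of the GFP-negative library, 784 nuclei. In total the nephron classes made up 84.2% of GFP-positive nuclei, against 35.8% of GFP-negative ones. The GFP-negative library was labelled non-nephron, and 1194 of its nuclei go against that label. Endothelial, stromal and immune classes made up 1.14% of GFP-positive nuclei, against 43.9% of GFP-negative ones. A further 382 GFP-positive nuclei (10.9%) and 16 GFP-negative nuclei (0.479%) lay in clusters left unnamed.

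**Figure D2:**
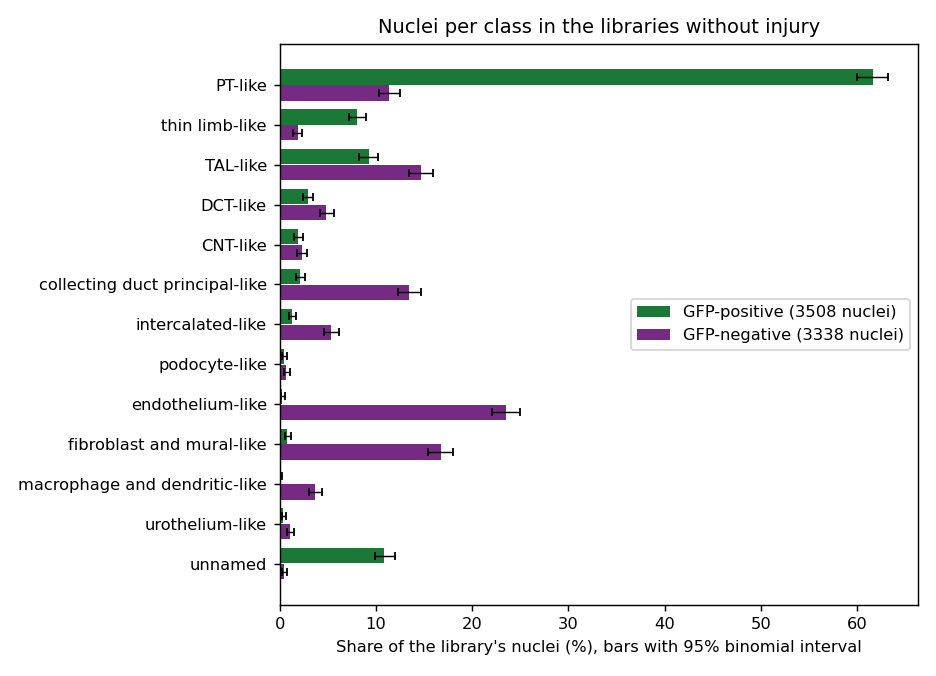
Share of each library's nuclei (%) per marker class with the exact 95% binomial interval, GFP-positive bars above GFP-negative bars. PT-like nuclei lead the GFP-positive library at 61.6%, while endothelium-like nuclei lead the GFP-negative library at 23.5%.

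Over all nuclei, 731 of 12496 genes (5.85%) were at least 2-fold higher in the GFP-positive library and 2533 (20.3%) at least 2-fold lower. The median log2 fold of all genes was -0.29 with totals as scale and 0.07 with trimmed mean of M-values (TMM) scaling, which gave 1289 genes higher and 1728 lower. PT-like nuclei had the highest level of 552 of the 731 higher genes (75.5%), against 9.73% of all genes tested. Endothelial, stromal or immune nuclei had the highest level of 1337 of the 2533 lower genes (52.8%), against 35.2% of all tested. Folh1, a membrane carboxypeptidase that splits folate and N-acetylaspartylglutamate, had 176 CPM in GFP-positive and 18.7 CPM in GFP-negative nuclei, a ratio of 9.42 (7.42 to 12.1). At the other end, the endothelial coreceptor Eng had 4.75 CPM in GFP-positive and 157 CPM in GFP-negative nuclei, 33.0-fold lower. Pcdh12, a cadherin of endothelial cells, had 0 UMIs in GFP-positive nuclei against 49 UMIs in GFP-negative nuclei, at least 30.4-fold lower against a floor of 3 counts. Adgrl4, an adhesion receptor of endothelium, had 13.8 CPM in GFP-positive and 372 CPM in GFP-negative nuclei.

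Lists of developmental regulators were read beside the shares of all genes, 5.85% higher and 20.3% lower. Of the ureteric bud list, 10 of 13 genes were measured, 7 were lower and 0 higher, and the median log2 fold was -1.26. Gata3, a factor of the ureteric bud and collecting duct, had 13.8 CPM in GFP-positive and 109 CPM in GFP-negative nuclei, 7.91-fold lower. Of 27 Hox genes, 17 were measured, 12 were lower and 0 higher, with a median of -1.38. Hoxd9 had 11.7 CPM in GFP-positive and 39.5 CPM in GFP-negative nuclei. Of 14 nephron lineage factors 3 were higher and 2 lower, with a median of -0.19 beside -0.29 for all genes, so the lower share and the median lie near those of all genes. The higher ones included the PT regulators Hnf4a (2.28-fold) and Hnf4g (2.13-fold). The lower ones were Pou3f3 (ratio 0.409) and Tfap2b (ratio 0.492), which act in the loop of Henle and the distal nephron.

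Fewer genes differed once the class shares were made equal. The GFP-negative level of each gene was recomputed with the UMI shares that the classes hold in the GFP-positive library, over the 8 classes with at least 20 nuclei in both (3084 GFP-positive and 2355 GFP-negative nuclei). Before this, 708 of 11859 genes (5.97%) were higher and 2087 (17.6%) lower. After it, 284 (2.39%) were higher and 1240 (10.5%) lower, and 193 and 881 genes were called in the same direction both times. Slc12a1, the sodium-potassium-chloride cotransporter of the TAL, had a ratio of 0.349 before and 1.00 after. Umod, the gene of uromodulin, had a ratio of 0.295 before and 0.668 after, and Aqp2, the vasopressin-regulated water channel, 0.138 and 0.535. Slc13a1, the apical sodium-sulfate cotransporter of the PT, kept a ratio of 5.11 where it had 12.9 before. Ugt2b37, a glucuronosyltransferase, was at 25.99 after and 29.98 before. Kynu, the kynureninase of tryptophan breakdown, was at 15.2 and 16.3. The 3 PT genes thus stayed at 5.11 or above with equal class shares.

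The proximal tubule has an early part (S1) that recovers most filtered glucose, amino acids and phosphate, a middle part (S2) rich in organic anion transport, and a straight late part (S3) in the outer medulla and medullary rays. The labelled and unlabelled PT differed first in these parts. S1-like nuclei were 45.4% (43.3 to 47.6) of GFP-positive and 32.0% (27.4 to 37.0) of GFP-negative PT-like nuclei. S2-like nuclei were 46.0% of GFP-positive PT-like nuclei (995 nuclei) and 13.6% of GFP-negative ones (52 nuclei). S3-like nuclei were 8.51% (7.37 to 9.77) of GFP-positive PT-like nuclei, 184 nuclei, and 54.3% (49.2 to 59.4) of GFP-negative ones, 207 nuclei. As a share of the whole library, S3-like nuclei were 5.25% of all GFP-positive nuclei, against 6.20% of all GFP-negative ones, a ratio of 0.846 with an interval of 0.690 to 1.04. The early and middle parts were thus 7.66-fold and 18.2-fold more frequent in the GFP-positive library, whereas the interval for the late part includes equal shares. The median UMIs per nucleus of the late part were 2543 in GFP-positive and 2622 in GFP-negative nuclei.

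Summed over PT-like nuclei, 357 of 9464 genes (3.77%) were higher and 839 (8.87%) lower. TMM scaling, which moved the median log2 fold to 0.16 against -0.12 with totals, gave 737 higher and 428 lower, so the balance of directions depends on the scale. The S3 marker list had 6 of 10 genes lower and 0 higher, with a median log2 fold of -1.40. The S1 list had 4 of 10 higher and 0 lower, with a median of 0.85. Cyp7b1, the oxysterol 7-alpha-hydroxylase of late PT, had 573 CPM in GFP-positive and 3549 CPM in GFP-negative PT-like nuclei, 6.20-fold lower. Within S3-like nuclei alone it had 4908 CPM in GFP-positive and 5541 CPM in GFP-negative nuclei, a ratio of 0.886 (0.840 to 0.934). Slc22a19, an organic anion transporter, had 134 CPM in GFP-positive and 624 CPM in GFP-negative PT-like nuclei, but 1024 CPM and 972 CPM in S3-like nuclei. The cystine and aspartate carrier Slc7a13 likewise had a PT ratio of 0.550 and an S3 ratio of 1.06 (0.981 to 1.14). These S3 markers helped to define the cluster, so their levels there are a description. Other genes that were lower in the PT kept part of their difference in the S3-like nuclei. Bcat1, the cytosolic branched-chain aminotransferase, had 119 UMIs in GFP-positive and 190 UMIs in GFP-negative PT-like nuclei (8.71-fold lower) and a ratio of 0.554 (0.429 to 0.711) in S3-like nuclei. Mro, a gene of unclear function in kidney, was 7.31-fold lower over the PT and had a ratio of 0.658 in S3-like nuclei. Gfra1, a receptor for glial cell-derived neurotrophic factor, had 13 UMIs in GFP-positive and 34 UMIs in GFP-negative PT-like nuclei, and the steroid dehydrogenase gene Akr1c18 had 11 and 29 UMIs in GFP-positive and GFP-negative nuclei.

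**Figure D3:**
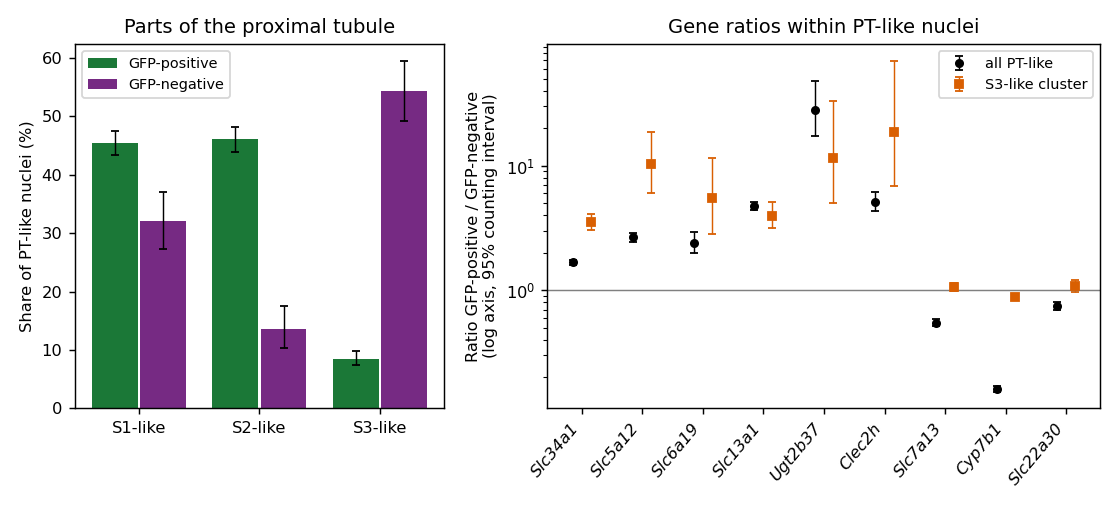
Left, share of PT-like nuclei (%) in the S1-, S2- and S3-like clusters with exact 95% binomial intervals, GFP-positive bars left of GFP-negative bars; right, ratio GFP-positive over GFP-negative on a log axis with 95% counting intervals for 9 genes, in all PT-like nuclei (circles) and in the S3-like cluster (squares). Cyp7b1 is at 0.161 in all PT-like nuclei and 0.886 in the S3-like cluster, whereas Slc13a1 stays at 3.97 or above in both.

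Other genes differed in every part of the PT. Slc13a1 had 3731 CPM in GFP-positive and 788 CPM in GFP-negative PT-like nuclei, a ratio of 4.74 (4.39 to 5.12). Its ratio was 1.88 in S1-like nuclei (1.70 to 2.08), 2.72 in S2-like nuclei (2.35 to 3.16) and 3.97 in S3-like nuclei (3.14 to 5.07). Ugt2b37 had 2583 UMIs (553 CPM) in GFP-positive and 17 UMIs (19.8 CPM) in GFP-negative PT-like nuclei, a ratio of 27.9 (17.4 to 47.9). In the S2-like nuclei, which held most of its UMIs, it had 1983 UMIs in the GFP-positive and 3 UMIs in the GFP-negative library (32.4-fold, 11.1 to 157). Ugt2b37 is among the leading genes of the S2-like cluster and helped to define it, so its values there are a description. In S1-like nuclei Ugt2b37 was 7.29-fold higher (3.67 to 17.0), and in S3-like nuclei 11.6-fold higher (5.06 to 32.8). Clec2h, a C-type lectin-like membrane protein, had 767 CPM in GFP-positive and 149 CPM in GFP-negative PT-like nuclei, and its ratio was 2.05 in S1-like, 4.55 in S2-like and 18.5 in S3-like nuclei. The S3-like value rests on 69 UMIs in GFP-positive and 4 UMIs in GFP-negative nuclei.

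Several of the highest ratios stood on few unlabelled counts. Kynu had 451 UMIs in GFP-positive and 5 UMIs in GFP-negative PT-like nuclei, a ratio of 16.5 (7.03 to 51.2). Edaradd, an adaptor of the ectodysplasin receptor, had 150 and 2 UMIs in GFP-positive and GFP-negative nuclei, a ratio of 13.8 (3.74 to 115). Cyp4a12b, a fatty acid omega-hydroxylase of male kidney, had 205 UMIs in GFP-positive and 3 UMIs in GFP-negative nuclei, a ratio of 12.5 (4.23 to 61.3). All 3 lower bounds are past 2-fold, and the upper bounds are wide. Hao2, a peroxisomal hydroxyacid oxidase, had 201 CPM in GFP-positive and 35.0 CPM in GFP-negative PT-like nuclei (5.73-fold). Kcnip4, a potassium channel-interacting protein, had 202 CPM in GFP-positive and 23.3 CPM in GFP-negative PT-like nuclei (8.66-fold), but 7 UMIs against 8 UMIs in S3-like nuclei, so its difference was not detectable there.

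With the PT clusters of the GFP-negative library weighted as in the GFP-positive library, 613 genes were higher and 687 lower, and 182 and 387 genes were called in the same direction as before. Ugt2b37 then had a ratio of 19.9, Edaradd 13.3, Kynu 9.55 and Slc13a1 2.26, while Cyp7b1 moved to 0.874 and Slc22a19 to 1.10. Slc34a1, the renal sodium-phosphate cotransporter, changed sides. It had 4337 CPM in GFP-positive and 2591 CPM in GFP-negative PT-like nuclei (1.67-fold), but a weighted ratio of 0.783. Part by part its ratio was 0.807 in S1-like and 0.724 in S2-like nuclei, and 3.53 (3.07 to 4.09) in S3-like nuclei, where it had 1631 CPM in GFP-positive and 461 CPM in GFP-negative nuclei.

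The S3-like cluster, with like numbers of nuclei and like depth in both libraries, gave 55 of 4556 genes higher (1.21%) and 121 lower (2.66%), with a median log2 fold of 0.00. Its higher genes included markers of earlier PT. Of the S1 list 8 of 10 genes were measured, with 5 higher, 0 lower and a median of 1.69, and of the S2 list 5 of 8, with 3 higher, 0 lower and a median of 1.36. The S3 list had 0 higher and 0 lower of 10, with a median of -0.14. Slc5a12, a sodium-lactate cotransporter of early PT, had 281 CPM in GFP-positive and 27.5 CPM in GFP-negative S3-like nuclei (10.2-fold, 5.999 to 18.8). Prodh2, the hydroxyproline dehydrogenase, had 82.5 CPM in GFP-positive and 7.33 CPM in GFP-negative S3-like nuclei. Slc6a19, the neutral amino acid transporter of early PT, had 110 CPM in GFP-positive and 20.1 CPM in GFP-negative S3-like nuclei (5.46-fold). How far free RNA or the border between clusters enters these values was not tested.

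On the lower side of the S3-like cluster, the spindle protein gene Spag5 had 1952 CPM in GFP-positive and 5025 CPM in GFP-negative nuclei (ratio 0.388, 0.361 to 0.418). Mad1l1, a spindle checkpoint gene, had 751 CPM in GFP-positive and 1868 CPM in GFP-negative nuclei (0.402). The uncharacterised genes Gm28153 and 4930556J24Rik had ratios of 0.434 and 0.389. Ccdc79, a gene of meiotic telomeres also known as Terb1, had 377 CPM in GFP-positive and 1084 CPM in GFP-negative S3-like nuclei, 2.87-fold lower, and was 7.15-fold lower over all PT-like nuclei. Counts from nuclei include introns, so the level of a gene is not a level of mature mRNA, and overlapping genes cannot be told apart. Endothelium markers were 50.7 CPM in GFP-positive and 254 CPM in GFP-negative PT-like nuclei, and Ldb2 (10.9-fold lower) and Ptprm (9.22-fold lower), which endothelial cells also express, were lower together with them. The part of those markers in the result was not tested.

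Lists of PT pathways were read beside the shares of all genes in PT-like nuclei, 3.77% higher and 8.87% lower. Of the transport list, all 27 genes were measured, and 6 were higher and 0 lower with a median log2 fold of 0.45, beside -0.12 for all genes. Slc2a2, the basolateral glucose transporter, had 165 CPM in GFP-positive and 61.8 CPM in GFP-negative PT-like nuclei (2.67-fold). Slc7a8, a basolateral amino acid exchanger, was 2.48-fold higher, and Slc22a6, the organic anion transporter of the basolateral side, 2.37-fold higher. With the PT clusters weighted as in the GFP-positive library, Slc2a2 was at 1.33, Slc7a8 at 1.86 and Slc22a6 at 0.879. These higher ratios over the PT thus depend in part on the unequal shares of its clusters. In the list of glucuronidation, sulfation and cytochrome P450 genes, 8 of 18 measured were higher and 2 lower, with a median of 0.38. Ugt2b38 was 2.92-fold, Cyp4a14 3.45-fold and Cyp2d26 3.21-fold higher, while the sterol demethylase gene Cyp51 had a ratio of 0.356. In fatty acid oxidation 1 of 17 was higher and 2 lower, with a median of 0.10, which is near the shares of all genes. The coactivator gene Ppargc1a was 2.30-fold higher, and the dehydrogenase gene Acadm (0.358) and the peroxisomal enzyme gene Ehhadh (0.467) were lower. Within S3-like nuclei Acadm was at 0.781 and Ehhadh at 1.01. Of 10 genes of megalin and cubilin endocytosis 1 was higher and 0 lower, namely the adaptor Dab2 (2.78-fold), while the receptors Lrp2 and Cubn had ratios of 1.09 and 1.17. Of 11 measured p53 targets 2 were higher, on few counts, and 0 lower, beside the same 3.77% and 8.87% of all genes. They were Pmaip1, with 65 UMIs in GFP-positive and 2 UMIs in GFP-negative PT-like nuclei (5.96-fold, 1.58 to 50.2), and Gdf15, with 72 UMIs in GFP-positive and 3 UMIs in GFP-negative nuclei (4.40-fold, 1.45 to 21.8). Of 11 measured Hox genes in PT-like nuclei 5 were lower and 0 higher, with a median of -0.86, beside 8.87% of all genes lower.

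The thick ascending limb, which reabsorbs salt without water, had few genes past 2-fold as its nuclei were named here. Of 4315 genes, 56 (1.3%) were higher and 78 (1.81%) lower. That count depends on the clustering. A deep cluster led by Slc12a1, with a median of 3275 UMIs in 121 GFP-positive nuclei and of 2511 UMIs in 5 GFP-negative nuclei, resembled both TAL and PT and was left unnamed, with Slc12a1 at 4718 CPM and Slc13a1 at 2372 CPM in its GFP-positive nuclei. With all 5 libraries clustered 473 genes were higher and 172 lower in TAL-like nuclei, and with each library clustered by itself 482 and 162. Slc12a1 had 12977 CPM in GFP-positive and 12482 CPM in GFP-negative TAL-like nuclei, a ratio of 1.04 (1.00 to 1.08). Egf, which the TAL and DCT secrete, had 7918 CPM in GFP-positive and 8035 CPM in GFP-negative nuclei, a ratio of 0.985 (0.942 to 1.03). Of 21 measured genes of thick limb and distal transport 0 were higher and 0 lower, with a median log2 fold of -0.02. The cortical cluster held 42.3% of the GFP-positive TAL-like nuclei, against 44.4% of the GFP-negative ones. Umod had 1525 CPM in GFP-positive and 1880 CPM in GFP-negative TAL-like nuclei (0.811), with a ratio of 0.920 (0.814 to 1.04) in the cortical and 0.668 (0.557 to 0.798) in the medullary cluster.

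PT-like nuclei had the highest level of 40 of the 56 higher TAL genes (71.4%), against 11.2% of all genes tested there. Slc13a1 had 56 UMIs in GFP-positive and 9 UMIs in GFP-negative TAL-like nuclei (9.99-fold, 4.91 to 23.0). Dab2 was 8.598-fold higher, Ftcd, a folate and histidine enzyme, 7.67-fold, and Slc47a1, a cation exporter, 6.43-fold. Among the lower genes, Ppard, a nuclear receptor for fatty acids, had 6 UMIs in GFP-positive and 35 UMIs in GFP-negative TAL-like nuclei (3.63-fold lower), and Car15, a carbonic anhydrase, had 15 and 73 UMIs in GFP-positive and GFP-negative nuclei (3.03-fold lower).

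The median PT marker had a higher share of its PT level in GFP-positive than in GFP-negative nuclei of each of the 7 other classes compared. All 13 markers compared had higher levels in 6 of these classes, and 10 of 13 in CNT-like nuclei. In CNT-like nuclei Lrp2 had 3 UMIs in GFP-positive and 5 UMIs in GFP-negative nuclei, and Cubn and Slc13a3 had 0 and 3 UMIs each. These counts are too few to show a lower level. The level of each of the 14 PT markers was expressed as a share of its PT-like level in the same library. The median share was 47.0% in GFP-positive DCT-like nuclei, against 4.35% in GFP-negative DCT-like nuclei over the 13 markers with at least 40 UMIs in PT-like nuclei there. It was 56.9% in GFP-positive and 5.23% in GFP-negative principal-like nuclei, and 48.6% in GFP-positive and 3.43% in GFP-negative intercalated-like nuclei. It was lower in TAL-like nuclei, 8.89% in GFP-positive and 2.31% in GFP-negative ones, and in CNT-like nuclei, 6.15% and 2.98%. In the same GFP-positive classes with high shares the nuclei were deep. DCT-like nuclei had a median of 2136.5 UMIs in the GFP-positive and 1370 in the GFP-negative library, and principal-like nuclei 2654.5 and 1212, whereas TAL-like nuclei had 1090.5 and 1215. No doublet caller was run, and whether joined nuclei, free RNA or expression by the cells gave these transcripts was not tested.

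**Figure D4:**
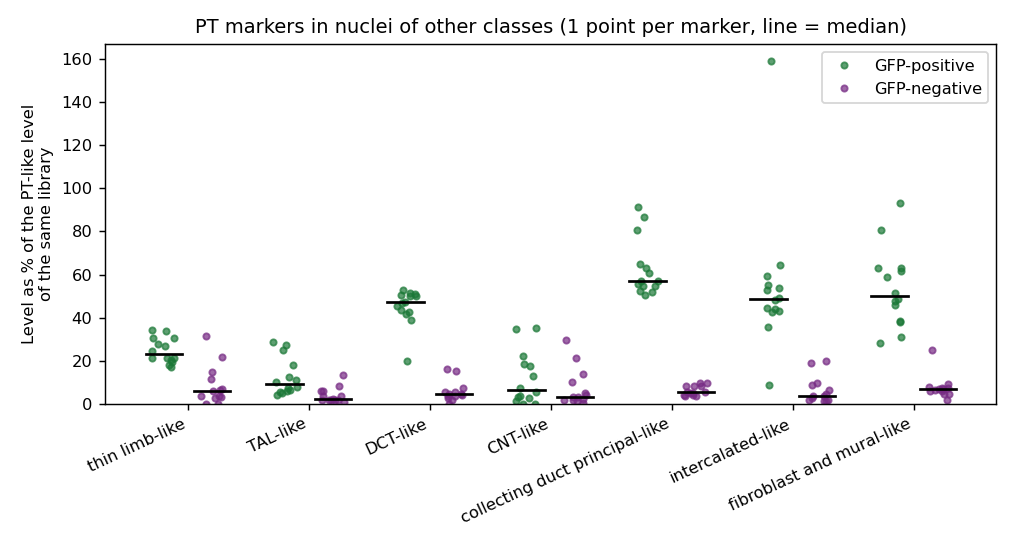
Level of each PT marker in nuclei of 7 other classes, as a percentage of its level in PT-like nuclei of the same library; each point is 1 marker and the line the median, GFP-positive left of GFP-negative. The GFP-positive DCT-, principal-, intercalated- and fibroblast and mural-like medians lie between 47.0% and 56.9%, and the GFP-negative medians of these classes between 3.43% and 6.74%.

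The distal convoluted tubule, the site of thiazide-sensitive salt and of magnesium reabsorption, had many genes past 2-fold, a count that depended on which nuclei were taken. Of 2246 genes, 304 (13.5%) were higher and 100 (4.45%) lower in GFP-positive DCT-like nuclei, and PT-like nuclei had the highest level of 223 of the 304 (73.4%), against 18.9% of all genes tested. With finer clustering (resolution 2.0) there were 13 higher and 34 lower, and with all 5 libraries clustered 185 and 74. Slc13a1 had 1672 CPM in GFP-positive and 25.7 CPM in GFP-negative DCT-like nuclei, a ratio of 65.2 (29.7 to 179). Ugt2b37 had 74 UMIs in GFP-positive and 0 UMIs in GFP-negative DCT-like nuclei, at least 22.0-fold higher against a floor of 3 counts. Slc12a3, the thiazide-sensitive cotransporter that defines the segment, had 6979 CPM in GFP-positive and 16117 CPM in GFP-negative DCT-like nuclei (0.433, 0.409 to 0.458). The magnesium channel Trpm6 had 655 CPM in GFP-positive and 1291 CPM in GFP-negative nuclei (0.507), while the sodium-calcium exchanger Slc8a1 had 19784 CPM and 20435 CPM (0.968, 0.931 to 1.01).

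Nuclei with a share of UMIs in PT markers above the 95th percentile of GFP-negative nuclei of their class were then left out, a step chosen after these values had been seen. It removed 70 of 102 GFP-positive (68.6%) and 9 of 162 GFP-negative DCT-like nuclei. The 70 had a median of 2943 UMIs and the 32 others 1216.5. In the 70 the DCT markers summed to 8170 CPM and in the 32 others to 18773 CPM, beside 21092 CPM in the remaining GFP-negative DCT-like nuclei. Without them 17 genes were higher and 60 lower of 944, and the ratio of Slc12a3 was 0.853 (0.779 to 0.932). Slc13a1 was 6.70-fold higher (1.44 to 33.8). Nox4, an oxidase gene of PT that was 22.3-fold higher before, had 0 UMIs in the GFP-positive nuclei left. The interval of its ratio, 0 to 13.0, includes equal levels. Both intervals are wide, so the values of these genes rest on few counts and do not separate them.

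In TAL-like nuclei the same step removed 129 of the 324 GFP-positive nuclei (39.8%), against 25 of the 489 GFP-negative ones. It left 37 genes higher and 100 lower of 3645. There Slc5a12, 6.13-fold higher before, had a ratio of 0.917 (0.213 to 3.09), but Slc13a1 had 10.4 (4.48 to 28.2), Dab2 6.08 and Ftcd 7.003. Slc5a12 and Slc5a2 are among the markers used for the step and Slc13a1, Dab2 and Ftcd are not, so the lower ratio of Slc5a12 is partly set by the step itself.

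**Figure D5:**
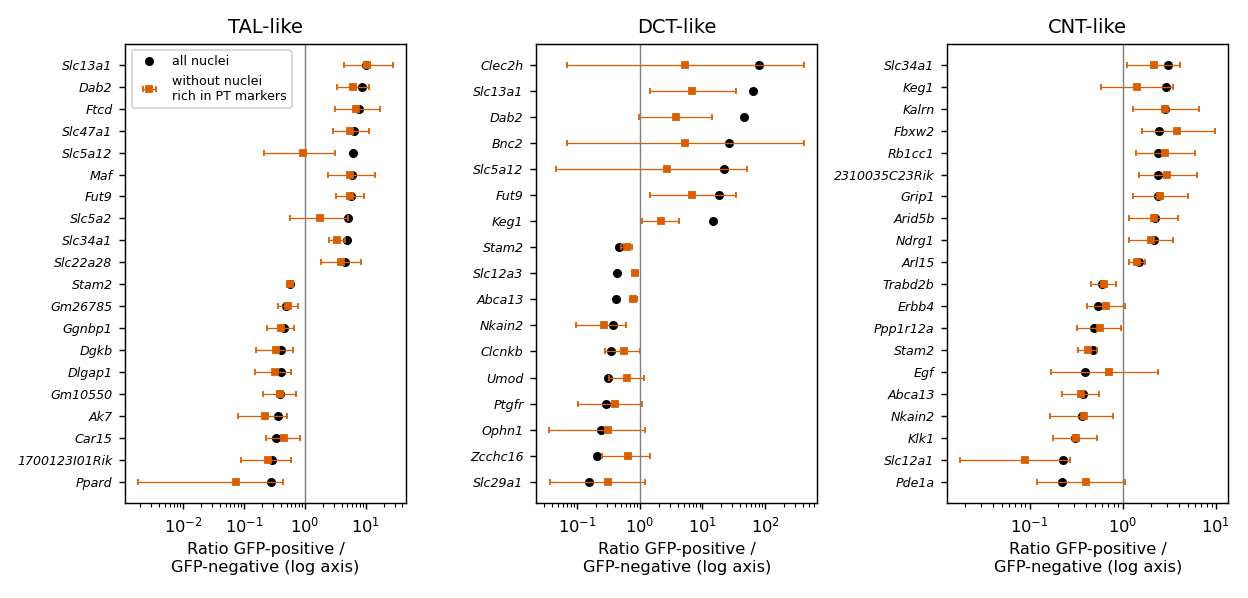
Ratio GFP-positive over GFP-negative on a log axis for the named genes of TAL-, DCT- and CNT-like nuclei, in all nuclei of the class (circles) and without the nuclei rich in PT markers (squares, with 95% counting intervals); genes with no ratio in either are left out. In DCT-like nuclei Slc12a3 is at 0.433 in all nuclei and 0.853 in those left, and Slc13a1 at 65.2 and 6.70, whereas in TAL-like nuclei Slc13a1 is at 9.99 and 10.4.

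The connecting tubule, where calcium is reclaimed under hormonal control, gave the fewest testable genes. Of 674 genes, 17 (2.52%) were higher and 11 (1.63%) lower. TMM scaling gave 10 higher and 14 lower, and clustering all 5 libraries gave 268 higher and 58 lower. Slc8a1 had 27411 CPM in GFP-positive and 26208 CPM in GFP-negative CNT-like nuclei (1.05, 0.990 to 1.11), and the calcium buffer Calb1 839 CPM and 708 CPM (1.18, 0.845 to 1.66). Klk1, the tissue kallikrein that CNT cells release into urine, had 24 UMIs (305 CPM) in GFP-positive and 119 UMIs (1003 CPM) in GFP-negative CNT-like nuclei (0.304, 0.188 to 0.475). Without the nuclei rich in PT markers Klk1 was at 0.314. Slc12a1 had 216 CPM in GFP-positive and 952 CPM in GFP-negative CNT-like nuclei (0.227), and Slc34a1 801 CPM and 261 CPM (3.06). After the deepest 5% of nuclei of each library were left out and the rest clustered again, the ratio of Slc12a1 was 1.84, in the other direction, and removal and new clustering cannot be told apart in this value.

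Nuclei of the thin limb and of the collecting duct also differed between the fractions. In thin limb-like nuclei 240 of 2167 genes (11.1%) were higher and 75 (3.46%) lower in GFP-positive nuclei. Fst, the activin-binding protein follistatin, had 261 CPM in GFP-positive and 562 CPM in GFP-negative thin limb-like nuclei (0.464, 0.321 to 0.680), and the borate transporter relative Slc4a11 286 CPM and 1098 CPM (0.260, 0.194 to 0.350). In collecting duct principal-like nuclei 426 of 3719 genes (11.5%) were higher and 440 (11.8%) lower. Aqp2 had 697 CPM in GFP-positive and 1795 CPM in GFP-negative principal-like nuclei (0.388), Fxyd4, a regulator of the sodium pump, 382 CPM and 1020 CPM (0.375), and the sodium channel subunit Scnn1b 115 CPM and 292 CPM (0.392). The principal-like clusters had unequal shares. The cluster with Fxyd4 among its leading genes held 12 GFP-positive and 274 GFP-negative nuclei, and the cluster led by Aqp2 held 62 and 175. In intercalated-like nuclei 156 of 1632 genes (9.56%) were higher and 165 (10.1%) lower. Slc26a4, the pendrin exchanger of type B cells, had 3184 CPM in GFP-positive and 3603 CPM in GFP-negative intercalated-like nuclei (0.884, 0.776 to 1.00), whereas Slc4a1, the exchanger of type A cells, had 7 UMIs in GFP-positive and 95 UMIs in GFP-negative nuclei (0.174, 0.0679 to 0.372). Type A nuclei were 20 of 46 GFP-positive and 109 of 177 GFP-negative intercalated-like nuclei. The parts that the PT markers described above and the unequal cluster shares have in these ratios were not tested.

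Across the 4 segments 605 genes could be tested in all, and Ndrg1 was the only gene at least 2-fold higher in each. Ndrg1 encodes a cytoplasmic protein induced by stress and low oxygen. It had 1916 CPM in GFP-positive and 908 CPM in GFP-negative PT-like nuclei (2.11), 359 CPM and 168 CPM in TAL-like (2.13), 1009 CPM and 304 CPM in DCT-like (3.32) and 699 CPM and 320 CPM in CNT-like nuclei (2.18). Its ratio was 1.15 in S1-like, 2.05 in S2-like and 1.61 in S3-like nuclei, and its level is highest in PT-like nuclei. A further 8 genes were higher in 3 segments, namely Slc13a1, Slc5a12, Dab2, Slc34a1, Nox4, Ugt2b38, Keg1 and Cyp4b1, and PT-like nuclei have the highest level of each. No gene was lower in all 4, and 4 were lower in 3, namely Ltbp3, Nkain2, Dgkb and Abca13. Of these 4, only 2 (Nkain2 and Abca13) were among the 605.

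Stam2, an adaptor that sorts ubiquitinated receptors at endosomes, was lower in GFP-positive nuclei throughout, by less than 2-fold in most classes. It had 1956 CPM over all GFP-positive and 3268 CPM over all GFP-negative nuclei (0.599, 0.584 to 0.613). Its ratio was 0.560 (0.516 to 0.608) in TAL-like, 0.462 in DCT-like, 0.480 in CNT-like, 0.610 in thin limb-like, 0.555 in principal-like, 0.589 in intercalated-like and 0.617 in fibroblast and mural-like nuclei. In PT-like nuclei it was 0.807 (0.769 to 0.848), and within the parts of the PT 0.643 in S1-like, 0.603 in S2-like and 0.753 in S3-like nuclei. A search made after this was seen found that, of 499 genes tested in all 8 classes, Stam2 alone had its whole interval below 1 in each class, and 3 genes had it above 1 in each. Those were Slc34a1, Pde4d and Ndrg1, and PT-like nuclei have the highest level of all 3, whereas Stam2 is highest in principal-like nuclei. Without the nuclei rich in PT markers Stam2 was at 0.570 in TAL-like, 0.616 in DCT-like and 0.424 in CNT-like nuclei. Stam2 lies on chr2:52691664-52742281 (GRCm38, minus strand), and Ndrg1 on chr15:66929318-66969640 (minus strand).

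The cluster with most Six2 held 226 GFP-positive and 6 GFP-negative nuclei, 6.44% and 0.180% of the libraries. It kept PT markers at reduced levels, with Slc34a1 at 2774 CPM where GFP-positive PT-like nuclei had 4337 CPM, and Lrp2 at 918 CPM where these had 1542 CPM. Cyp7b1 was at 26.4 CPM where these had 573 CPM. Its leading genes included Havcr1, the kidney injury molecule, at 74.0 CPM beside 4.07 CPM in GFP-positive PT-like nuclei. The adhesion gene Vcam1 had 82.0 CPM beside 1.28 CPM, the keratin gene Krt20 55.5 CPM beside 2.14 CPM, and the cadherin gene Cdh6 235 CPM beside 3.00 CPM. Of the 15 genes of the tubule injury list 11 were at least 2-fold above GFP-positive PT-like nuclei, 1 (Igfbp7) was higher by less, 1 (Plin2) was lower, and 2 (Lcn2, Sox9) were at 0 in PT-like nuclei, with 1 UMI and 0 UMIs in the cluster. Of the 15 genes 8 had under 10 UMIs in it. The share of all genes at least 2-fold above GFP-positive PT-like nuclei was not counted for this cluster. The 11 of 15 thus stand without a background and are not read as a result about the list. The leading genes, Six2 among them, define the cluster, so these values describe it and test nothing. The markers of parietal epithelium were its next most similar class, with Ncam1 at 156 CPM and Akap12 at 127 CPM. The rest of that list was uneven. Pax2 had 127 CPM beside 66.3 CPM in GFP-positive PT-like nuclei, Cldn1 45.0 CPM beside 8.56 CPM, Dkk3 4 UMIs and Wfdc18 0 UMIs. Because only 6 such nuclei were GFP-negative, no comparison between fractions was made.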

How the data were processed

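The deposited matrices hold UMI counts per gene and barcode, made by the authors from single-nucleus droplet reads using Cell Ranger 2.1, STAR 2.5.1b and bcl2fastq 2.17, with mm10 as genome, per the submitters' processing notes. The study's design text names a pre-mRNA reference, so intron reads count. How the authors called barcodes is not given in the sources used here, and their merging of libraries and cell types were not used. The deposited lists name 27998 genes, with 56 symbols standing for several genes, which were kept apart by identifier. Positions come from GENCODE vM21 (GRCm38), where 569 of 569 genes looked up were matched.

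Nuclei of the libraries without injury were clustered together in scanpy 1.11.5 (at least 200 genes, counts scaled to 10000 and logged, 2000 variable genes with the library as batch key, 30 principal components, 15 neighbours, Leiden resolution 1.0, seed 0). A cluster was named after the class, of 15, with the highest mean log2 ratio of its markers to the 25th percentile over clusters, with 10 CPM added. A name needed 3 detected markers and a margin of 0.5 over the next class. Deep clusters (over 1.5 times the library's depth) whose next class scored over 2.0 stayed unnamed. These limits were chosen with the data in view, and the classes, 21 gene lists and 7 lists of tubule parts were chosen with earlier results of these data known. Doublets were not called, and an alternative leaves out the deepest 5% of nuclei. No limit was set on mitochondrial UMIs.

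UMIs were summed per library and class, and no summed count was modelled, since each group had 1 library. Ratios carry exact conditional Poisson intervals, levels exact Poisson intervals and shares exact Clopper-Pearson intervals, all at 95%. List medians use log2 folds with 1 CPM added, over members with at least 40 UMIs. The text names the 10 genes with the highest lower bound and the 10 with the lowest upper bound of the ratio in each comparison or some of them, genes past 2-fold in 3 or more segments, members of lists, and Six2, Six3 and Gt(ROSA)26Sor. Genes named in the S3-like cluster, in the unnamed cluster and from the search over 8 classes were chosen after their values were seen. Alternatives covered the gene minimum, resolution, clustering of all 5 libraries or of each by itself, depth, mitochondrial share, TMM (edgeR 4.0.16) and median ratio scaling, thinning to 500 UMIs per nucleus, the UMI minimum, the pseudocount and the weighting of clusters. Leaving out nuclei rich in PT markers was added after seeing the data. The ratio and interval code was tested on simulated data. Other software was R 4.3.3, Python 3.11.15, pandas 2.3.3, scipy 1.17.1, igraph 0.11.9, numpy 2.4.6, matplotlib 3.10.9 and scikit-learn 1.9.0.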

Additional observations from a re-analysis of the deposited data

Results flagged for a closer look

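In 3 genes the difference between GFP-positive and GFP-negative nuclei ran in opposite directions in DCT-like and PT-like nuclei, each by at least 2-fold. The ratio of Mad1l1 was 3.47 in DCT-like and 0.467 in PT-like nuclei. Gramd1b, a gene of cholesterol transfer between membranes, had a ratio of 6.61 in DCT-like nuclei, with 141 UMIs in GFP-positive and 19 UMIs in GFP-negative nuclei, and of 0.340 in PT-like nuclei. Ghr, the growth hormone receptor, had a ratio of 3.63 in DCT-like and 0.460 in PT-like nuclei. The difference between the segments was not tested. Each segment compares 1 GFP-positive with 1 GFP-negative library, and the PT-like sums hold S3-like nuclei in unequal shares, 8.51% of GFP-positive and 54.3% of GFP-negative PT-like nuclei. Within the S3-like cluster Ghr was at 0.932, Gramd1b at 0.745 and Mad1l1 at 0.402. The GFP-positive DCT-like nuclei carried PT markers at a median of 47.0% of their PT level, and the part of this in the ratios was not tested.

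Six2 was also counted in the GFP-positive libraries after IRI, which enter no comparison above. Its level was 87.3 CPM at 64 h (309 of 3012 nuclei with a UMI), 155 CPM at 96 h (236 of 3202 nuclei) and 127 CPM at 28 d (334 of 3299 nuclei), beside 22.5 CPM in GFP-positive and 0.520 CPM in GFP-negative nuclei without injury. There was 1 library per time, and the difference was not tested.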

How the results depend on the processing

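Shares and counts of genes past 2-fold moved with many choices, and the cause was not tested unless the setting itself changes what is counted. Over the settings tried, 129 of 172 shares stayed within their interval, 75 of 136 counts stayed within 1.5 times, and of 1007 ratios of named genes 857 stayed within their counting interval, 144 left it in the same direction and 6 reversed. The PT-like share of GFP-positive nuclei was 66.1% with at least 400 genes, 68.2% at resolution 0.5, 67.0% at resolution 2.0, 65.5% with all 5 libraries clustered and 67.3% without the deepest 5% of nuclei, and that of GFP-negative nuclei 14.1% with at least 400 genes and 8.70% without the deepest 5%. The TAL-like share of GFP-positive nuclei was 12.8% with 5 libraries clustered and 12.4% with each library by itself, the DCT-like share 2.31% with 5 libraries and 1.48% at resolution 2.0, and the CNT-like share 3.51% with 5 libraries and 4.87% with each library by itself, where 0% of GFP-negative nuclei were CNT-like. With at least 400 genes 18.6%, 5.88% and 2.98% of GFP-negative nuclei were TAL-, DCT- and CNT-like.

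Counts are given as higher, then lower, in GFP-positive nuclei. With no minimum of UMIs they were 1952 and 6280 over all nuclei, 2977 and 4117 in PT-, 1826 and 3548 in TAL-, 3336 and 3353 in DCT- and 2500 and 3638 in CNT-like nuclei. With at least 100 UMIs 1573 were lower over all nuclei, and there were 225 and 331 in PT-, 11 and 7 in TAL-, 88 and 22 in DCT- and 0 and 5 in CNT-like nuclei. With the whole interval past 2-fold there were 420 and 1549 over all nuclei, 64 and 238 in PT-, 16 and 0 in TAL-, 150 and 8 in DCT- and 0 and 2 in CNT-like nuclei. With nuclei thinned to 500 UMIs 1512 were lower over all nuclei and 261 in PT-like nuclei, and there were 22 and 24 in TAL-, 28 and 16 in DCT- and 2 and 4 in CNT-like nuclei. TMM scaling gave 1289 higher over all nuclei, 737 and 428 in PT-like and 10 higher in CNT-like nuclei, and median ratio scaling 1157 higher over all nuclei and 10 and 17 in CNT-like nuclei. With 5 libraries clustered there were 473 and 172 in TAL-like, 185 higher in DCT-like and 268 and 58 in CNT-like nuclei, and with each library by itself 482 and 162 in TAL-like nuclei. At resolution 2.0 there were 13 and 34 in DCT-like nuclei, and without the deepest 5% 152 and 61. Without nuclei rich in PT markers there were 37 higher in TAL-, 17 and 60 in DCT- and 6 higher in CNT-like nuclei. Weighting PT clusters gave 613 higher in PT-like nuclei, and strata of clusters instead of classes gave 474 higher after standardisation.

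The 6 reversed ratios were Slc5a12 in TAL-like (0.917) and Nox4 in DCT-like nuclei (0) without nuclei rich in PT markers, Slc12a1 (1.84), Egf (5.64) and Erbb4 (1.82) in CNT-like nuclei without the deepest 5%, and Egf in CNT-like nuclei (2.05) after thinning. Reversed here refers to the ratio alone. The intervals of Slc5a12 (0.213 to 3.09) and Nox4 (0 to 13.0) include equal levels. No paired analysis was possible because each fraction had 1 library and the labels give no replicate numbers, and no library could be left out. With each library clustered by itself no GFP-negative nuclei were CNT-like, so that setting gives no CNT counts. The CNT-like comparison, with 66 GFP-positive and 77 GFP-negative nuclei, could test 674 genes.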

Other observations

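Lists of general processes in PT-like nuclei are given beside the shares of all genes there, 3.77% higher and 8.87% lower, and with lists this small a count of 0 is near those shares. Of 19 measured nuclear-encoded respiratory chain genes 0 were higher and 0 lower, with a median log2 fold of -0.34 beside -0.12 for all genes. Of 14 cytosolic ribosomal protein genes 0 were higher and 0 lower, with a median of -0.31. Heat shock genes (7 measured, median -0.06) and histone genes (9 measured, median 0.00) likewise had 0 in either direction. Of 6 immediate early genes 2 were higher and 0 lower, with a median of 0.31.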
